A study of Mus musculus with 4 samples.

Results

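The unfolded protein response genes examined here are 10 transcripts of the endoplasmic reticulum (ER) stress pathway, chosen by symbol as *Hspa5*, *Hsp90b1*, *Calr*, *Canx*, *Pdia3*, *Pdia4*, *Pdia6*, *Ddit3*, *Atf4* and *Xbp1*. All 10 were matched by Ensembl gene identifier to a row of the deposited expression table, which holds 14924 genes, and all 10 were tested. The table describes mouse lenses at postnatal day 30 (P30), from *S100A4*-/- mice, which lack the small calcium-binding protein S100A4, and from their wild-type (WT) littermates. There were 2 libraries of each genotype, each made from 6 to 12 pooled lenses, and the comparison asks how loss of S100A4 alters lens gene expression. Both groups are labelled with a C57BL/6 strain background, and the null line was kept on C57BL/6J. The null allele is in the germline, so every cell type of the eye lacks the gene, and neither the sex of the pooled animals nor the cell types of a pool can be separated.

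A normalized expression value is here the number of reads assigned to a gene divided by the size factor of its library. It is not divided by gene length. The 2 null libraries held 81602367 and 74108017 reads on genes, the 2 WT libraries 70253985 and 68038158, and 1 read was worth between 0.856 and 1.09 of this value. Between 60.1% and 61.7% of the reads in each library came from its 10 most abundant genes. The targeted gene *S100a4* (chr3:90603771-90606045, GRCm38) had values of 14.6 and 18.2 in *S100A4*-/- lenses and 14420 and 14385 in WT lenses. Both null libraries therefore carried the genotype on their labels.

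The ER is where secreted and membrane proteins are folded. When unfolded chains build up there, the sensor kinase IRE1 splices *Xbp1* mRNA, the membrane-bound factor ATF6 is cut to release a transcription factor, and the kinase PERK phosphorylates the translation factor eIF2 alpha. Phosphorylated eIF2 alpha slows bulk translation while favouring translation of the ATF4 message, and ATF4 in turn induces genes of amino acid supply and, with prolonged stress, *Ddit3*, which encodes the pro-apoptotic factor CHOP. Other eIF2 alpha kinases, which sense amino acid shortage, haem shortage or viral RNA, feed into the same ATF4 arm, which is called the integrated stress response. The lens fiber is a long-lived cell that makes very large amounts of crystallin and membrane channel and later removes its own ER and nucleus.

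The chaperones and isomerases of the ER differed between genotypes by at most 0.09 on the log2 scale, none of them past the test, and *Atf4* was the only member that passed the test, being higher in *S100A4*-/- lenses. Differences were tested with limma on log2(value + 1) over 14780 genes, with Benjamini-Hochberg adjustment over all of them, and a gene was called at an adjusted p of at most 0.05. By this rule 1 of the 10 members was called, in the upward direction, beside 6.96% of all tested genes called in either direction, 5.62% higher and 1.33% lower. edgeR and DESeq2 on recovered reads also called *Atf4* and no other member, and no other member had an unadjusted p under 0.05 in any of the 3 tools, where 17.7% of all tested genes did in limma. None of the 10 was called with at least a 2-fold change as well, a rule that 3.72% of all genes met (3.65% higher and 0.0744% lower). The members' median log2 fold change was -0.04 and their median absolute log2 fold change 0.07, beside -0.01 and 0.12 over all tested genes. The median depended on the scaling. With equal totals it was -0.01 beside 0.02 over all genes, and with quantile normalization -0.004 beside -0.03. The members are abundant transcripts, and of the 6430 tested genes whose mean value lay in the same range, 201 were called higher and 143 lower, with a median absolute log2 fold change of 0.07.

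**Figure D1:**
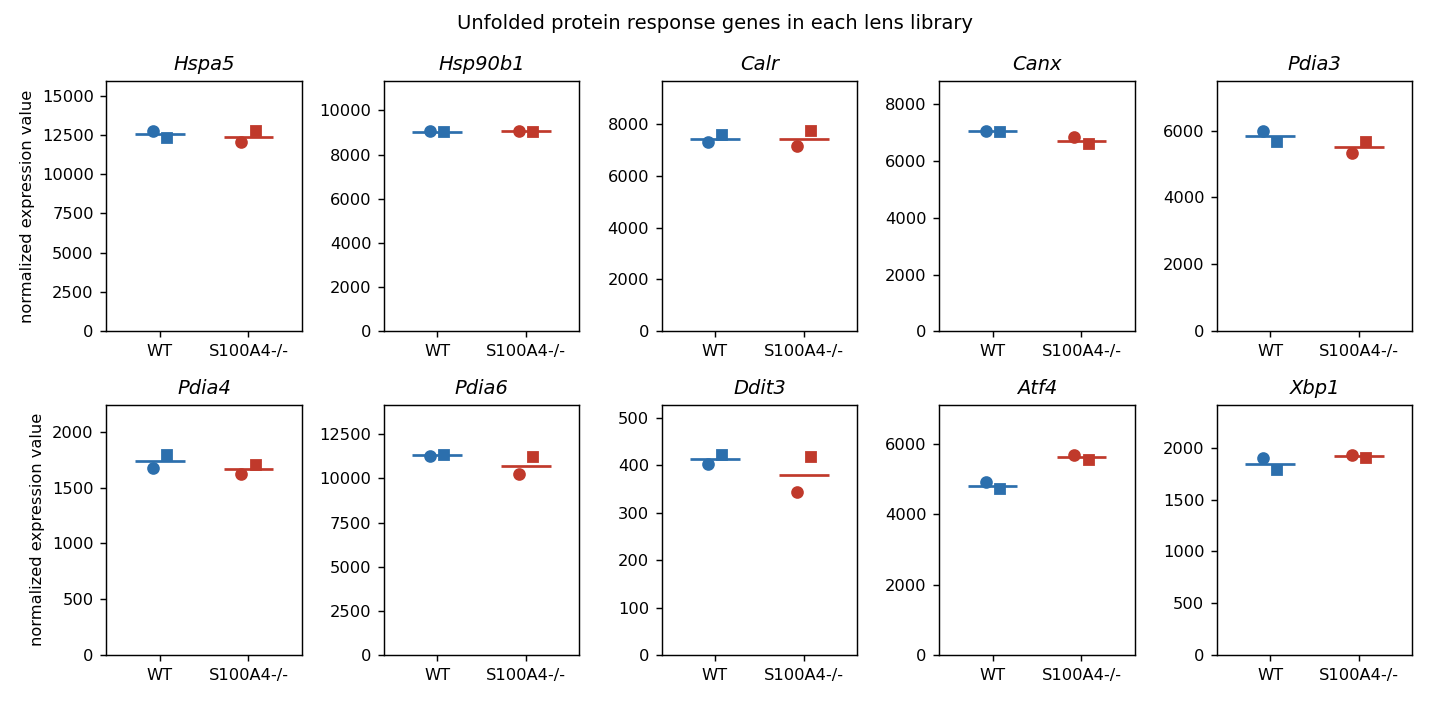
Each panel plots the normalized expression value (vertical axis, starting at 0) of 1 unfolded protein response gene in the 2 WT and the 2 *S100A4*-/- lens libraries, with points for libraries (WT blue, null red) and a line for the group mean. The *Atf4* panel shows both null libraries (5694 and 5558) above both WT libraries (4909 and 4712), and the *Hsp90b1* panel shows 4 nearly equal points.

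*Hspa5* (ENSMUSG00000026864, chr2:34771970-34777547, plus strand) encodes BiP, the ER member of the Hsp70 family, which binds nascent chains and holds the stress sensors inactive. Its normalized value was 12064 and 12718 in *S100A4*-/- lenses and 12739 and 12306 in WT lenses. The genotypes overlapped, with the lowest and the second highest library both null. The means were 12391 ± 462 and 12522 ± 306 (SD, n = 2 libraries each), a log2 fold change of -0.02 with a 95% interval from -0.10 to 0.07 (limma, adjusted p = 0.907). *Hsp90b1* (ENSMUSG00000020048, chr10:86690209-86705509, minus strand) encodes GRP94, the Hsp90 of the ER. Its values were 9067 and 9034 in null lenses and 9049 and 9038 in WT lenses, so the 4 libraries were almost level and overlapped. The log2 fold change was 0.00 with an interval from -0.09 to 0.09 (limma, adjusted p = 0.994).

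*Calr* (ENSMUSG00000003814, chr8:84841850-84846934, minus strand) and *Canx* (ENSMUSG00000020368, chr11:50293961-50325673, minus strand) encode calreticulin and calnexin, the soluble and the membrane-anchored lectin chaperone that hold glycoproteins during folding. *Calr* had values of 7151 and 7730 in null lenses and 7312 and 7569 in WT lenses, and both WT libraries lay between the null libraries. Its interval ran from -0.10 to 0.10 on the log2 scale (limma, adjusted p = 0.995). *Canx* had values of 6846 and 6601 in null lenses and 7060 and 7041 in WT lenses. Both null libraries were lower here, by a log2 difference of -0.07 (95% interval -0.16 to 0.03), and the test was not passed (limma, adjusted p = 0.477).

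The protein disulfide isomerases form and rearrange disulfide bonds in the ER. *Pdia3* (ENSMUSG00000027248, chr2:121413775-121438687, plus strand) encodes ERp57, which works with calnexin and calreticulin, and had values of 5336 and 5652 in null lenses and 5984 and 5672 in WT lenses. *Pdia6* (ENSMUSG00000020571, chr12:17266545-17284770, plus strand) had values of 10224 and 11198 in null lenses and 11293 and 11339 in WT lenses. Both genes were lower in each null library than in either WT library, both by small margins in the second null library, that of *Pdia3* (5652 against 5672) the smaller. Neither passed the test. Their log2 fold changes were -0.09 (95% interval -0.19 to 0.02, limma adjusted p = 0.389) and -0.08 (-0.17 to 0.01, adjusted p = 0.376). *Pdia4* (ENSMUSG00000025823, chr6:47796141-47813430, minus strand) encodes ERp72 and had values of 1625 and 1701 in null lenses and 1680 and 1795 in WT lenses. These overlapped, and the log2 fold change was -0.06 (95% interval -0.19 to 0.07, limma adjusted p = 0.676).

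Summed over the 7 chaperones and isomerases, the values were 52312 and 54634 in *S100A4*-/- lenses and 55116 and 54759 in WT lenses. The 7 genes took, together, between 0.0727% and 0.0751% of all reads in each library. The null libraries were thus below the WT libraries for the sum, the second one by a small margin, and 3 of the 7 genes (*Canx*, *Pdia3* and *Pdia6*) had both null libraries below both WT libraries. Over all tested genes, 23.2% had the null libraries below and 46.9% did not overlap in either direction, so groups of 2 often separate. The separation also depended on the scaling. In CPM, which scales every library to the same total of reads, of those 3 genes *Pdia6* (146 and 149 against 154 and 152) kept its order, *Canx* and *Pdia3* overlapped, and the shares of the 7 genes overlapped too. *Calr* moved above in both null libraries in CPM (102.3 and 102.9 against 99.7 and 101.6), by a small margin. *Atf4* stood above in both null libraries in CPM as well (81.5 and 74.0 against 66.9 and 63.3). In bulk lens RNA a smaller share of ER-rich cells and less transcript per cell cannot be told apart.

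Of the transcription factors, *Xbp1* (ENSMUSG00000020484, chr11:5520659-5525893, plus strand) is the IRE1 substrate, and the gene-level value sums its spliced and unspliced mRNA. It had values of 1934 and 1905 in null lenses and 1907 and 1787 in WT lenses. The groups overlapped, with the lower null library just under the higher WT library. The log2 fold change of *Xbp1* was 0.06 (95% interval -0.07 to 0.18, limma adjusted p = 0.707). *Ddit3* (ENSMUSG00000025408, chr10:127290774-127296288, plus strand) encodes CHOP and was the least abundant member, with values of 344 and 418 in null lenses and 403 and 423 in WT lenses. The first null library was low and the second lay between the WT libraries. *Ddit3* had a log2 fold change of -0.12, and its interval, from -0.35 to 0.10, was the widest of the 10 (limma, adjusted p = 0.629).

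*Atf4* (ENSMUSG00000042406, chr15:80255184-80257541, plus strand) encodes the transcription factor of the integrated stress response. Its values were 5694 and 5558 in *S100A4*-/- lenses and 4909 and 4712 in WT lenses. Both null libraries were higher than both WT libraries, and on this scale *Atf4* was the only member with that order, which 23.7% of all tested genes had. The means were 5626 ± 96.1 and 4811 ± 139 (SD, n = 2 libraries each), and the log2 fold change was 0.23 ± 0.05 (SE) with a 95% interval from 0.13 to 0.33 (limma, adjusted p = 0.00144). The call was lost when the first null library (adjusted p = 0.097) or the second WT library (adjusted p = 0.0731) was left out, and when limma was run without its mean-variance trend (adjusted p = 0.324). The log2 fold change itself stayed between 0.20 and 0.26 when single libraries were left out. These values are of the transcript and do not measure ATF4 protein, whose amount is set largely by translation.

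**Figure D2:**
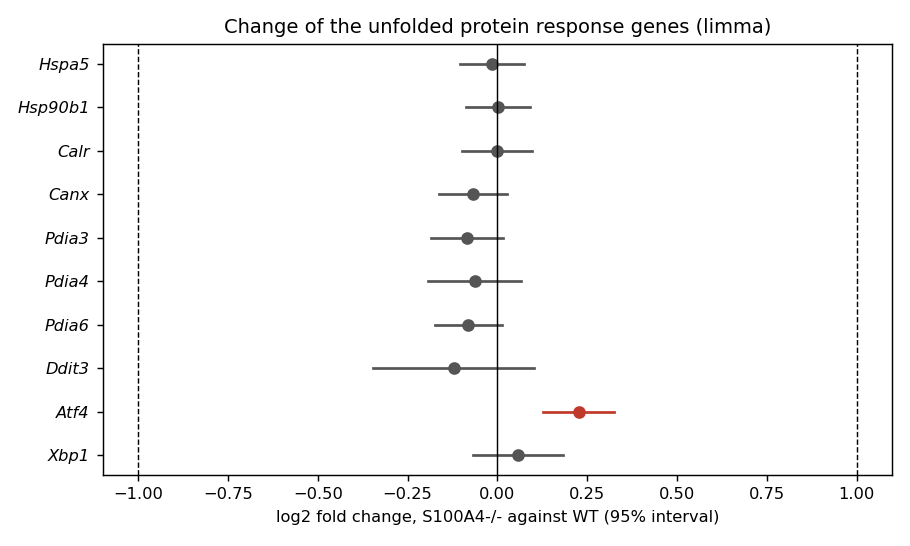
The log2 fold change of each unfolded protein response gene between *S100A4*-/- and WT lenses (horizontal axis, points) is drawn with its 95% interval from limma (bars) and dashed lines at a 2-fold change. The interval of *Atf4*, from 0.13 to 0.33, lies above 0, and the intervals of the other 9 genes include 0.

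For the 8 members other than *Atf4* and *Ddit3*, the 95% intervals together spanned 0.875-fold to 1.13-fold of the WT value. With *Ddit3* the lower end was 0.787-fold. A 2-fold change of any of these 9 genes was thus outside its interval. The intervals rest on 2 pools a genotype and carry the spread between pools, not that between single animals. Limma draws the variance of each gene toward that of genes of like abundance, so their widths are not a gene's own spread alone. *Hsp90b1*, with 4 nearly equal values, still had an SE of 0.04.

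Levels of different genes were compared per kilobase of exonic length. In WT lenses *Pdia6* (3022 per kb) and *Hspa5* (2961 per kb) led the members, followed by *Calr* (2584), *Hsp90b1* (2243), *Atf4* (2040), *Pdia3* (1857), *Canx* (1502), *Pdia4* (724), *Xbp1* (569) and *Ddit3* (241). The median over the tested genes was 68.0 per kb, and *Pdia6* ranked 285 and *Ddit3* ranked 3333 of 14782 genes. So even the transcript of CHOP, the least abundant member, was above the middle of the table in WT lenses. The order of neighbours held in 4 of 4 libraries for 7 of the 9 neighbouring pairs. The 2 exceptions were *Pdia6* and *Hspa5*, whose order held in 2 of 4 libraries, and *Hsp90b1* and *Atf4*, where *Atf4* was the higher per kb in both null libraries and the lower in both WT libraries.

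Promoters of the ER chaperones are known to carry the ER stress response element (ERSE), to which ATF6 binds together with the factor NF-Y. RefSeq promoter windows on GRCm38.p6, from 250 bases before to 50 bases after a transcript start, were searched on both strands for CCAAT and CCACG with 9 bases of any kind between them. The element was found in 39 of 32851 windows (0.119%) and in 17 of the 11020 tested genes that had a window (0.154%). All 10 members had a window, and 5 of them held the element. They are printed here because they are what these abundant chaperone genes share in sequence, 5′ to 3′ on the gene's strand with 5 flanking bases, the fixed letters of the element in capitals, and CGTGG and ATTGG marking an element in the reverse direction.
Hspa5: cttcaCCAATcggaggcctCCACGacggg
Hsp90b1, first: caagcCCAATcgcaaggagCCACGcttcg
Hsp90b1, second: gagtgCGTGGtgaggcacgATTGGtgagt
Calr: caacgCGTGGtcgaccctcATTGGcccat
Canx: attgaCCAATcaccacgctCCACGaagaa
Pdia6: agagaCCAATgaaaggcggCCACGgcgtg

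The *Hspa5* element lay at chr2:34772025-34772043 (plus strand), 65 bases before the transcript start of its window. Those of *Hsp90b1* lay at chr10:86705638-86705656 and chr10:86705533-86705551 (minus-strand gene), 212 and 107 bases before the start, that of *Calr* at chr8:84847075-84847093 (minus-strand gene), 162 bases before it, that of *Canx* at chr11:50325800-50325818 (minus-strand gene), 145 bases before it, and that of *Pdia6* at chr12:17266491-17266509 (plus strand), 98 bases before it. None of the 17 tested genes with the element was called in either direction by limma, edgeR or DESeq2, 1 had an unadjusted p under 0.05 in limma, beside 6.96% and 17.7% of all tested genes, and their median log2 fold change was 0.00. The core of the unfolded protein response element, TGACGTGG, stood in 0.676% of windows and in that of no member. Of the 116 tested genes that held it, 7 were called higher (6.03%) and 1 lower (0.862%), shares near the 5.62% and 1.33% of all tested genes. A match to these letters is a description of the sequence and does not show that a factor was bound.

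The stress sensors and the eIF2 alpha switch were followed through a list of 12 genes, all of which were tested. None was called in either direction by limma, edgeR or DESeq2, 4 had an unadjusted p under 0.05 in limma (3 higher, 1 lower), beside 6.96% and 17.7% of all tested genes, and their median log2 fold change was 0.06, with 8 above 0. *Ern1*, which encodes IRE1 alpha, had values of 275 and 318 in null lenses and 283 and 268 in WT lenses. *Eif2ak3*, which encodes PERK, had 376 and 311 against 334 and 263. *Atf6* had 1786 and 1712 against 1736 and 1764, and these 3 sensors overlapped between the genotypes. *Atf6b* was higher in both null libraries, with 524 and 533 against 445 and 459. Its log2 fold change was 0.23 (95% interval 0.03 to 0.42, limma adjusted p = 0.188). *Ppp1r15b* was also higher in both (0.14, limma adjusted p = 0.276) and *Eif2s1* lower in both (-0.12, limma adjusted p = 0.223). *Ppp1r15a*, the stress-inducible phosphatase subunit that restores eIF2 alpha, was the most abundant gene of the list per kilobase. Its values were 8411 and 8613 in null lenses and 7778 and 7931 in WT lenses, higher in both null libraries, with a log2 fold change of 0.12 (95% interval 0.02 to 0.21, limma adjusted p = 0.136). It was called under 2 of the other scalings, quantile normalization and equal totals without the 10 genes with most reads.

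Beyond the members, 24 partner chaperones and oxidative folding enzymes, 20 genes of ER-associated degradation and 14 genes of translocation into the ER were tested, and none was called in either direction by limma, edgeR or DESeq2. Of all tested genes limma called 6.96%. In limma 1, 0 and 2 of the listed genes, all lower, had an unadjusted p under 0.05, beside 17.7% of all tested genes. Their median log2 fold changes were -0.04, -0.01 and -0.09, beside -0.01 over all genes. *Dnajb9*, a BiP cochaperone known as an XBP1 target, had values of 404 and 327 in null lenses and 405 and 355 in WT lenses. *Herpud1*, a membrane component of the degradation complex that is induced strongly by ER stress, had 5626 and 5838 against 5625 and 5785. Both genes overlapped between the genotypes. *Ppib*, the ER cyclophilin, had 3262 and 3645 against 3960 and 3774, lower in both null libraries with a log2 fold change of -0.17 (95% interval -0.28 to -0.05, limma adjusted p = 0.0688). Of the 14 translocation genes 13 had a log2 fold change below 0 (11 with equal totals), among them *Ssr3*, a subunit of the translocon-associated complex, with 6321 and 6031 against 6664 and 6297.

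Targets of ATF4 and the integrated stress response held nearly all the called genes of the pathway. Of 34 listed genes 33 were tested, and 12 were called higher and none lower by limma, 4 of them with at least a 2-fold change. That is 36.4% of the list called higher, beside 5.62% of all tested genes, and 3.65% of all genes were called higher with at least a 2-fold change. The median log2 fold change was 0.18, 30 of the 33 genes were above 0 (28 to 31 under the other scalings), and in 21 both null libraries exceeded both WT libraries, an order that 23.7% of all tested genes had. The list was drawn up from known targets with earlier results of these data in view.

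**Figure D3:**
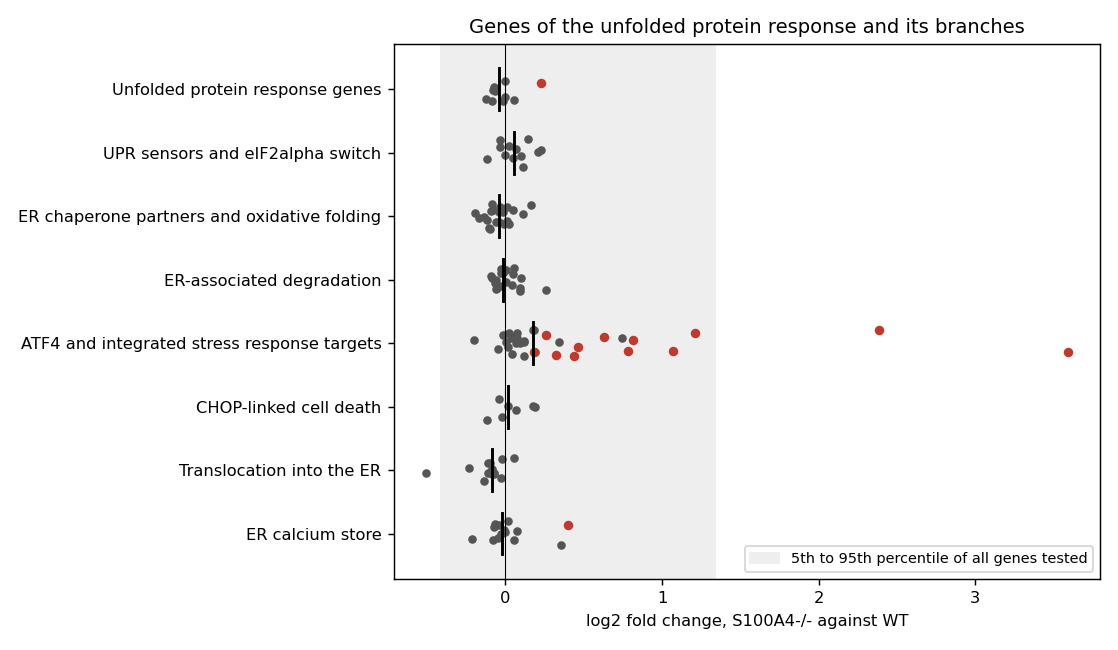
Points give the log2 fold change between *S100A4*-/- and WT lenses (horizontal axis) of single genes in 8 gene lists (rows), with called genes in red, other genes in grey and a black bar at each list's median, and the grey band spans the 5th to 95th percentile of all tested genes (-0.41 to 1.34). The ATF4 target row holds 12 called genes, all to the right of 0, while the rows of sensors, ER partners, degradation, cell death and translocation hold none.

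*Trib3*, a pseudokinase that is induced by ATF4 and represses it, had normalized values of 70.2 and 87.2 in *S100A4*-/- lenses and 12.5 and 2.19 in WT lenses. The groups were far apart, but the WT values rest on 12 and 2 reads. The log2 fold change was 3.59 ± 0.50 (SE, limma adjusted p = 1.05e-06), and it was 2.55 without the second WT library and 4.63 without the first. *Chac1*, which degrades glutathione, had values of 44.5 and 47.6 in null lenses and 7.31 and 8.76 in WT lenses. It too was low in both WT libraries, and its log2 fold change was 2.39 ± 0.45 (SE, limma adjusted p = 2.63e-04). The calls of *Trib3* and *Chac1* were lost when the first null library (adjusted p = 0.0761 and 0.091) or the second (0.0908 and 0.0872) was left out, and that of *Trib3* also without the trend (0.223).

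*Asns* (asparagine synthetase) had values of 534 and 569 in null lenses and 247 and 228 in WT lenses. *Slc7a1*, a carrier of cationic amino acids, had 938 and 952 in null lenses and 467 and 431 in WT lenses. Both genes were higher in each null library, and the gap between genotypes was many times that within them. Their log2 fold changes were 1.21 ± 0.11 and 1.07 ± 0.09 (SE), with limma adjusted p of 7.91e-11 and 3.00e-12, and both kept their call in all 16 alternative settings. *Sesn2*, a leucine sensor that restrains the growth kinase mTORC1, had 195 and 198 in null lenses and 101 and 123 in WT lenses. Its log2 fold change was 0.81 ± 0.17 (SE, limma adjusted p = 8.77e-04), and its call was lost without the first null library (0.142), without the second (0.137) and without the trend (0.125).

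The other 7 called targets changed less, and they are named here after their values were seen. *Pck2*, the mitochondrial phosphoenolpyruvate carboxykinase, rose by 0.78 on the log2 scale and *Aldh1l2*, a mitochondrial folate enzyme, by 0.63. *Aars*, the alanyl-tRNA synthetase, rose by 0.46, *Vldlr*, a lipoprotein receptor, by 0.44, and *Slc7a11*, the cystine carrier, by 0.32. The factor *Atf5* rose by 0.26 and the neutral amino acid carrier *Slc7a5* by 0.19. None of the 7 was called without the trend. *Aldh1l2* also lost its call with quantile normalization (limma adjusted p = 0.113) and in DESeq2 (adjusted p = 0.21). All but *Aars* lost the call in at least 1 fit without a single library. Among these losses were *Atf5* and *Slc7a5* without the first WT library and *Aldh1l2* without the second. By role, and beside 5.62% of all tested genes called higher, 3 of 4 amino acid carriers were called, 3 of 9 metabolic enzymes, 4 of 9 transcription factors and feedback genes, 1 of 3 secreted factors and receptors, and 1 of 8 genes of tRNA charging and export. All 8 genes of that last group had a log2 fold change above 0 under each of the 5 scalings tried.

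Several well-known ATF4 targets did not pass the test. *Nupr1*, a small stress-induced chromatin protein, was by far the most abundant of the list in WT lenses (14512 per kb) and had values of 36545 and 37194 in null lenses and 36350 and 36618 in WT lenses. *Gdf15*, a stress-induced cytokine, had 83.9 and 84.1 against 48.0 and 51.5, a log2 fold change of 0.75 (limma adjusted p = 0.0663). It was called with the replicate block (limma adjusted p = 0.0477). *Ddit4*, an mTORC1 inhibitor, had 1037 and 926 against 1130 and 1118, lower in both null libraries with a log2 fold change of -0.20 (95% interval -0.35 to -0.05, limma adjusted p = 0.12). The values of the list thus lay in both directions, and the called genes were all higher.

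**Figure D4:**
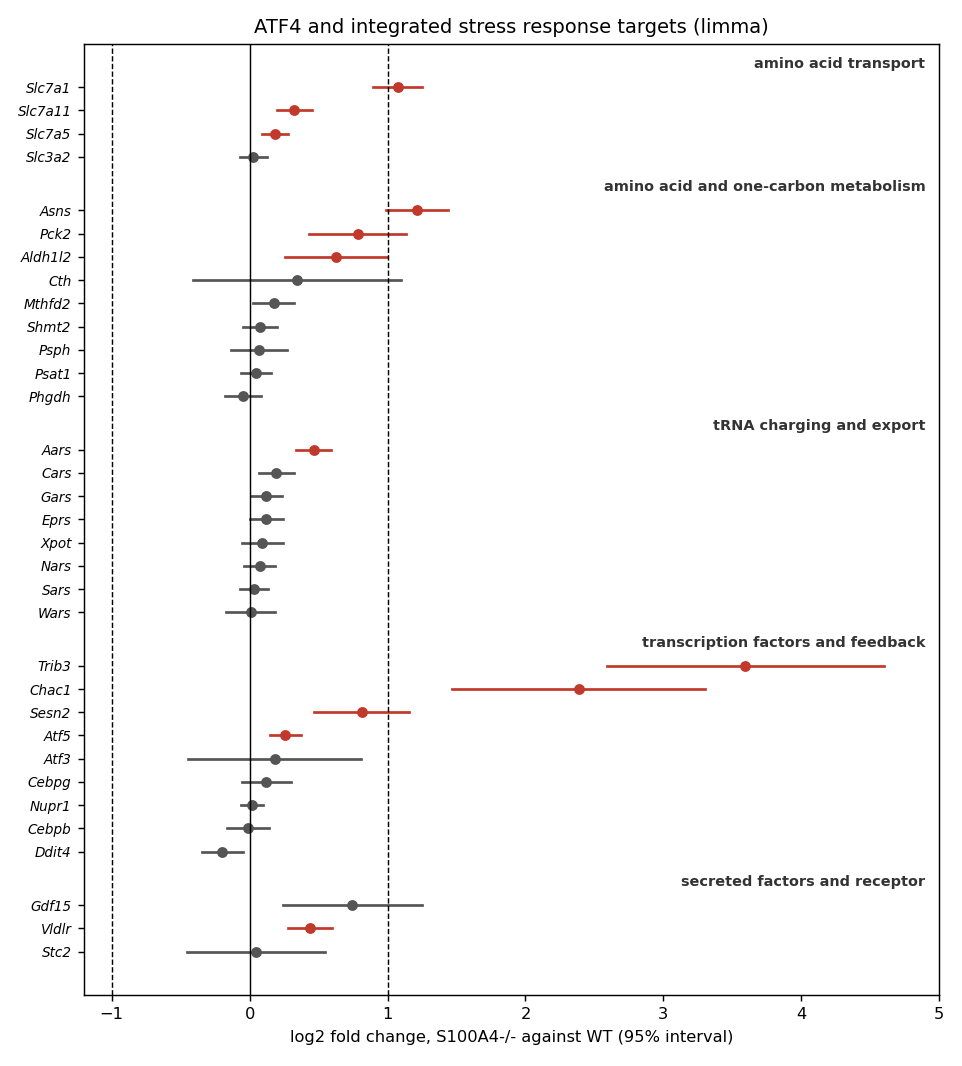
The log2 fold change between *S100A4*-/- and WT lenses (horizontal axis, points) is drawn for 33 ATF4 and integrated stress response targets with 95% intervals from limma (bars), grouped by role, with called genes in red and dashed lines at a 2-fold change. *Trib3* and *Chac1* lie farthest right with the widest intervals, and *Asns* (1.21) and *Slc7a1* (1.07) follow with narrow ones.

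The number of called targets depended on the test. Of the 12 genes, 11 were called by limma and by edgeR and DESeq2 on recovered reads, the exception being *Aldh1l2* in DESeq2. Without the mean-variance trend 3 were called (*Asns*, *Chac1* and *Slc7a1*). Calls over the whole table fell too, from 831 higher to 179 higher of 14780 tested genes. Without the first or the second null library, fewer targets and fewer of all tested genes were called.

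ATF4 is known to bind, with a C/EBP partner, the composite C/EBP-ATF response element (CARE), and the promoter windows were searched on both strands for its core TGATGNAAN. The core stood in 1299 of 32851 windows (3.95%) and in 294 of the 11020 tested genes with a window (2.67%). No member's window held it. Of the 27 ATF4 targets with a window 10 held it, and 3 of these were not called, *Nupr1*, *Atf3* (log2 fold change 0.18, limma adjusted p = 0.83) and *Gars* (0.12, adjusted p = 0.226). The cores are printed for the 7 called genes and for these 3, of *Aars* only 1 of its 2. They are given 5′ to 3′ on the gene's strand with 8 flanking bases and the fixed letters in capitals (TTNCATCA is the reverse direction).
Trib3: agctcaggtTTaCATCAgccgggcg
Chac1: tccctgccgTTgCATCActcctgcc
Asns: cagccacaTGATGaAActtcccgca
Pck2: ccttcaaagTTaCATCAgtatctta
Aars: tcttgagcaTTgCATCAgccgagcc
Vldlr: cagcaatagTTgCATCAgcgctcct
Slc7a11, first: catgtggcTGATGcAAacctggaga
Slc7a11, second: ctggagaatTTgCATCAtcatgcag
Nupr1: agggccagaTTgCATCAgacagggc
Atf3: ttctcgcacTTgCATCAccaagtcc
Gars: gctgcgctaTTtCATCAtgcaccgg

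The cores of *Trib3* (chr2:152344039-152344047), *Asns* (chr6:7693224-7693232), *Slc7a11* (chr3:50443671-50443679 and chr3:50443653-50443661), *Nupr1* (chr7:126625573-126625581) and *Atf3* (chr1:191183436-191183444) lay in minus-strand genes. Those of *Chac1* (chr2:119351048-119351056), *Pck2* (chr14:55540162-55540170), *Aars* (chr8:111033729-111033737, with a further one at chr8:111033850-111033858), *Gars* (chr6:55037970-55037978) and *Vldlr* (chr19:27216819-27216827) lay in plus-strand genes. Beside the 5.62% of all tested genes called higher, 7 of the 10 targets whose window held the core were called higher and the median log2 fold change was 0.45. Among the 17 whose window lacked it, 3 were called and the median was 0.07, and of the 6 without a window 2 were called. Over the 294 tested genes of the whole table that held the core, 29 were called higher (9.86%) and 2 lower (0.68%), beside 5.62% and 1.33% of all tested genes, with a median log2 fold change of 0.02. Those 294 include the 10 targets above and their 7 calls, so the 2 counts are not separate. The shares of all tested genes include genes without a window. The core is short and most of its matches lay outside the target list, so these counts describe the windows only.

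The death genes linked to CHOP showed no call in either direction by limma, edgeR or DESeq2 among 7 tested of 8 listed, 0 had an unadjusted p under 0.05, beside 6.96% and 17.7% of all tested genes, with a median log2 fold change of 0.01. *Bbc3*, which encodes the pro-apoptotic PUMA, had values of 217 and 185 in null lenses and 180 and 172 in WT lenses (log2 fold change 0.19, 95% interval -0.12 to 0.49, limma adjusted p = 0.565). *Bax*, a pore-forming executor of mitochondrial apoptosis, had 1346 and 1459 against 1354 and 1324 and overlapped between the genotypes.

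S100A4 binds calcium and the ER is the main calcium store of the cell, so 14 genes of that store were also tested. *Stim1*, the sensor of ER calcium that opens store-operated channels, was the only one called by limma, 1 of 14 beside 6.96% of all tested genes called in either direction, with values of 367 and 403 in null lenses and 315 and 270 in WT lenses. Both null libraries were higher, with a log2 fold change of 0.40 ± 0.12 (SE, limma adjusted p = 0.0285). The call was lost with quantile normalization, without the trend, in DESeq2 and when the first null, the second null or the second WT library was left out. *Rcn1*, a calcium-binding protein of the ER lumen and the most abundant gene of the list per kilobase, had 8636 and 8594 against 9244 and 8981, lower in both null libraries and not called (limma adjusted p = 0.358). The list's median log2 fold change was -0.02.

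Markers of other eye cell types differed between the same libraries. In null lenses the summed values of 10 lens fiber genes were 0.957 times, and of 4 lens epithelium genes 1.02 times, the WT mean. None of these genes was called in either direction by limma, beside 6.96% of all tested genes. Of the 10 fiber genes 1 and of the 4 epithelium genes 2 had an unadjusted p under 0.05, beside 17.7% of all. edgeR called 2 lens fiber genes lower and DESeq2 1. The genes with the highest mean normalized value over the 4 libraries, which is not divided by length, were *Cryaa*, the alpha A crystallin, and *Pax6*, and the gene named for each list below was chosen in the same way. Both were abundant in all 4 libraries, as the lens label of the samples has it.

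The 8 rod photoreceptor markers summed to 7604 and 7555 in null lenses and 1900 and 2030 in WT lenses. Beside 3.65% of all tested genes, all 8 were called higher with at least a 2-fold change. *Gnat1*, rod transducin, had the highest value of them at 3339 and 3327 against 736 and 782. The 5 pigment cell markers tested were all called higher and summed to 1177 and 1230 against 174 and 261. *Dct* was the highest of these in the mean over libraries. In WT its values (31.3 and 44.9) were below those of *Tyrp1* (92.9 and 153) and *Pmel* (44.9 and 48.2). Of the 4 Müller glia markers 3 were called higher (summed 6710 and 6560 against 2603 and 2823, with *Glul* the highest). Limma called 5.62% of all tested genes higher.

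Of the 3 ciliary body markers 2 were called higher (6702 and 6511 against 3071 and 3381, with *Aqp1* the highest in the mean over libraries and *Optc*, at 3609 and 3502 against 693 and 888, higher than it in the null libraries). Of 5 macrophage markers 3 were called higher (240 and 213 against 83.5 and 72.3, with *Csf1r* the highest) by limma and edgeR and 1 by DESeq2. Of 5 endothelial markers 2 were called higher (399 and 404 against 148 and 185, with *Flt1* the highest). These counts stand beside 5.62% of all tested genes called higher by limma. The other called endothelial gene was *Kdr* (74.5 and 60.8 in null lenses against 9.40 and 9.85 in WT lenses). *Pecam1* (23.1 and 24.3 against 18.8 and 24.1) and *Cdh5* (14.6 and 35.5 against 9.40 and 20.8) overlapped. *Tek* was lower in both null libraries (46.2 and 44.6 against 49.1 and 59.1) and was not called. Of 5 fibroblast markers 1 was called higher, *Col1a2*, and their summed value was 0.977 times that of WT. That sum is mostly *Pdgfra* (3543 and 3427 against 3803 and 3883), which was called lower with the replicate block (limma adjusted p = 0.0479). The other 4 fibroblast markers, all with a log2 fold change above 0, summed to 1.27 times the WT mean. Without the trend, the first null library or the second, the limma calls of *Col1a2* (adjusted p = 0.186, 0.077 and 0.0981) and *Csf1r* (0.116, 0.257 and 0.0862) were lost. Without the highest gene of each list the null sums were 3.52 times the WT mean for rods, 1.43 times for Müller glia, 3.47 times for pigment cells, 4.50 times for the ciliary body, 3.31 times for macrophages and 1.61 times for endothelium. None of the 49 markers had 0 reads in any library, and the lowest had 1 read. The rod, glial, pigment cell, ciliary body, macrophage and endothelial sums moved in the direction of *Atf4* and its targets, in the same libraries, and their part in those results was not tested.

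**Figure D5:**
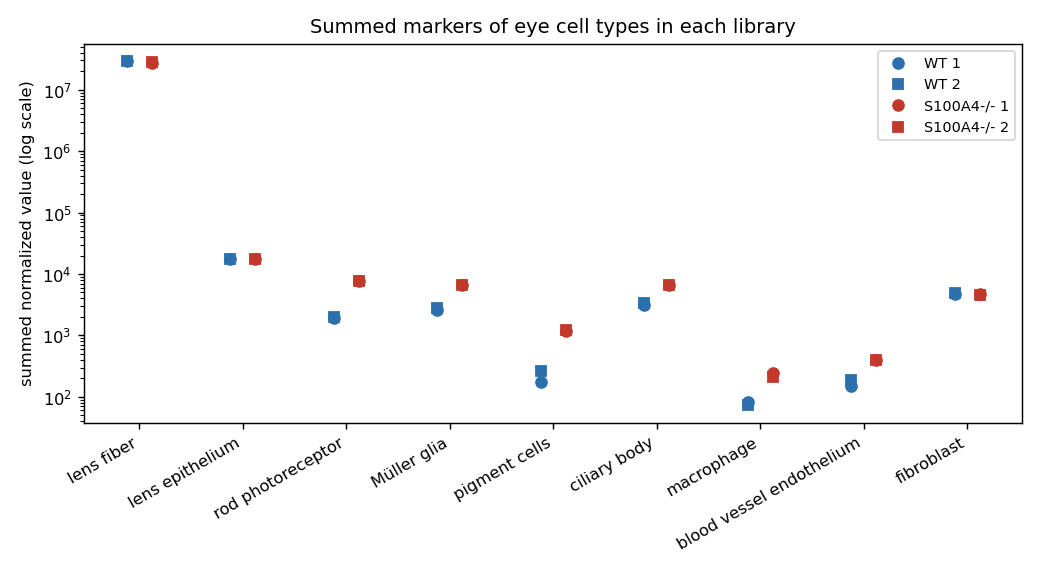
The summed normalized value of each eye cell type's markers (vertical axis, log scale) is plotted for each WT and *S100A4*-/- library. WT points are blue and null points red. The lens fiber and lens epithelium sums of the null libraries average 0.957 and 1.02 times those of WT, the fibroblast sum, mostly *Pdgfra*, 0.977 times (1.27 times without that gene), and those of rods, Müller glia, pigment cells, ciliary body, macrophages and endothelium are 2.05 to 5.54 times the WT sums (1.43 to 4.50 times without each list's highest gene).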

How the data were processed

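Stranded poly(A) mRNA libraries of pooled P30 lenses (2 *S100A4*-/-, 2 WT) were sequenced in 1 lane. Per the submitters' processing notes and the methods, the authors used Trim Galore, STAR (GRCm38, also named mm10), HTSeq on reads of a single locus and DESeq2, with a minimum of 10 reads per gene in 1 or more libraries. Tool versions and the strand setting of the counting are not given in the sources used here. The deposited signal values are gene counts over a library's size factor. Division by the value of 1 read gave whole reads for 100% of values in every library (tolerance 0.05 reads).

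Genes that reached a value of 10 in any of the libraries were tested with limma 3.58.1 (trend, two-sided) on log2(value + 1) under R 4.3.3. Fold changes are differences of mean logs on this scale. The added 1 pulls changes of low genes toward 0, but unequal libraries within a group can move them the other way. *Trib3* had a ratio of means of 10.7, less than its log2 fold change of 3.59 stands for. The sources used here do not say whether the pools of a genotype came from separate litters. The p-values measure only the spread between these pools, which limma draws for each gene toward that of genes of like abundance. Alternatives were edgeR 4.0.16 (quasi-likelihood) and DESeq2 1.42.0 (Wald) on recovered reads, pseudocounts of 0.5 and 5, no filter, a mean of at least 50, TMM, equal totals with and without the 10 genes with most reads, quantile normalization, no trend, the replicate number as a block, and each library left out. The fitting code was tested on simulated data.

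Genes of a list were named if they were among the 5 largest called changes or the most abundant per kilobase, and for markers if highest in mean normalized value. *Ern1*, *Eif2ak3*, *Atf6*, *Dnajb9*, *Gdf15*, *Ddit4*, *Bbc3* and the 7 smaller called ATF4 targets were added after their values were seen. So were *Optc*, *Tyrp1*, *Pmel*, *Col1a2*, *Atf3*, *Gars*, *Atf6b*, *Ppp1r15b*, *Eif2s1*, *Kdr*, *Pecam1*, *Cdh5* and *Tek*. The members and lists were chosen with earlier results of these data known. Listed genes without a row, and ER retrieval signals in proteins, were not analysed here. Coordinates and exonic lengths are from GENCODE M21 (GRCm38, 14782 genes matched) and promoter windows from RefSeq (GRCm38.p6).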

Additional observations from a re-analysis of the deposited data

How the results depend on the processing

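No scaling moved the median of all genes by more than 0.1 on the log2 scale. With 2 pools a genotype, leaving out a library leaves a lone sample that is assumed to vary like the other group, and genes with few reads, such as *Trib3*, have wide intervals. Called genes over the whole table numbered 831 higher and 197 lower. They were 549 higher with a mean of at least 50 and 179 without the trend, and 55 lower with equal totals, 101 without the 10 genes with most reads in the totals, 8 without the trend, 348 with the replicate block and 91 with DESeq2, and without single libraries 218 to 803 higher and 31 to 111 lower. The share of calls that were higher was 80.8%. It was 93.4% with equal totals and 95.7% without the trend, but 73.8% with the replicate block and 75.6% with a mean of at least 50. With at least a 2-fold change, 539 were higher and 11 lower, against 281 and 6 with a mean of at least 50, 174 and 7 without the trend, 23 lower with quantile normalization and 6 lower with DESeq2, and 168 to 546 and 4 to 13 without single libraries.

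Of the members, 0 were called without the trend, where *Atf4* kept a log2 fold change of 0.23, and 0 to 1 without single libraries, where *Atf4* ranged from 0.20 to 0.26. The ATF4 targets called were 3 without the trend, where 179 of 14780 tested genes were called higher. Fewer than the 12 of the main fit were called whenever a single library was left out. The calcium store count was 0 with quantile normalization, without the trend and with DESeq2, and 0 to 1 without single libraries. The sensors gave 1 call with quantile normalization and 1 with equal totals without the 10 genes with most reads (*Ppp1r15a*). Signs near 0 turned, with the cause not tested. *Hspa5* was at 0.0137 with equal totals, 0.0154 without the 10 genes with most reads and 0.0286 with quantile normalization. *Calr* was at 0.002 with TMM, 0.0281 with equal totals, 0.0299 without those 10 genes, 0.0212 with quantile normalization and 0.0034 with edgeR. *Atf6* was at 0.0014, 0.0276, 0.0293, 0.0109 and 0.0034 in the same 5 settings. *Atf3* was at -0.0827 with quantile normalization. Without single libraries *Hspa5* ranged from -0.0535 to 0.0226, *Hsp90b1* from -0.0015 to 0.0038, *Calr* from -0.0571 to 0.0552, *Ddit3* from -0.261 to 0.0168, *Herpud1* from -0.0199 to 0.0333, *Ern1* from -0.0032 to 0.21, *Atf6* from -0.0319 to 0.0289, *Dnajb9* from -0.211 to 0.0922 and *Cryaa* from -0.14 to 0.01.

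Same-numbered pools came from different animals, and their deviations from the group means were correlated at 0.01 over 14780 genes, so the numbers were not shown to pair the samples. The replicate block called 982 genes higher and 348 lower, and lost no call among the members. It gave 1 lower call among the ER partners (*Ppib*, limma adjusted p = 0.013) and called the fibroblast marker *Pdgfra* lower (0.0479). Called ATF4 targets numbered 14 with it, *Gdf15* (0.0477) among them.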
